A study of Mus musculus with 26 samples.

Results

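Chromosome 16 of the mouse carries 664 protein-coding genes in the annotation used here, and the 637 of them described below are those that remain when 27 genes of immune receptors, interferon and cytokine signalling and lymphocyte regulation are set aside. Apart from those 27, they were taken by position and gene type out of 55401 gene identifiers in the count tables, with no threshold on a measured value. The choice of members and of gene lists was made with earlier results of these data known. RNA was sequenced in bulk from group 2 innate lymphoid cells (ILC2s) of the lungs of female mice aged 8 to 16 weeks. The reference genome of the mouse was made from C57BL/6J, and CC030 is an inbred line from the Collaborative Cross, a panel bred from several founder strains. Naive ILC2s, sorted as Lin-CD90+CD127+CD25+ICOS+ after lineage depletion and enrichment of CD25+ cells with beads, gave 3 libraries from untreated C57BL/6J mice and 3 from untreated CC030 mice. A further 20 libraries came from ILC2s of 5 CC030 mice, sorted as Lin-CD90+CD127+ST2+ on another sorter and cultured at 3000 cells per well with IL-2 at 100 U/mL and both IL-33 and TSLP at 10 ng/mL. The cells of each mouse were split between DMSO vehicle and 10 µM AR420626, an agonist of the short-chain fatty acid receptor FFAR3, and were taken at day 2 and day 6, which gives 5 libraries in each of vehicle day 2, AR420626 day 2, vehicle day 6 and AR420626 day 6. Vehicle wells thus shared the cytokines with treated wells, and no cultured C57BL/6J cells were included. Naive and cultured cells were sorted by different gates and in different instruments, so they were not tested against each other.

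ILC2s live in tissues such as the lung and, without any antigen receptor, answer IL-33 and TSLP by dividing and by releasing type 2 cytokines. A chromosome is not a pathway. The genes described here range from housekeeping enzymes that every dividing cell uses to genes of neurons, spermatids, skin and hair, and they include most of the mouse counterparts of the human 22q11 region and a large share of those of human chromosome 21. Growing lymphocytes raise mitochondrial, ribosomal and secretory genes, whereas genes of other tissues are silent in them as a rule.

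Values are given as CPM, a member's count scaled by the library's counts in genes, and fold changes as the log2 ratio from edgeR after TMM normalization, with p adjusted over all genes tested and called at 0.05. TMM moved log2 fold changes against plain CPM by -0.18 for AR420626 at day 6, -1.08 for AR420626 at day 2, 1.00 for day 6 against day 2 and -1.24 between strains. In bulk RNA, fewer cells with a transcript and less of it per cell cannot be told apart. The reads carry no strand, so reads of overlapping genes cannot be told apart where they overlap. Such neighbours are named beside some of the genes. Overlaps not named there include Scaf4 with Sod1, Usp16 with Cct8 and BC106179 with St6gal1. Between strains, the p-values measure the spread between these mice. In culture, where mouse was a block, they measure the spread left after differences between mice were taken out.

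The libraries differed before any comparison was made. Counts in genes were 13533363 to 15234305 in C57BL/6J, 1324595 to 1524751 in naive CC030 and 227445 to 5320028 in culture, and the lowest was AR420626 day 2 of mouse 4. Chromosome 16 members held 1.73% to 1.85% of counts in C57BL/6J, 2.49% to 3.43% in naive CC030, 0.998% to 3.04% in vehicle day 2, 2.05% to 5.92% in AR420626 day 2, 5.24% to 7.19% in vehicle day 6 and 4.94% to 5.51% in AR420626 day 6. As a description across genes, which are not independent, the ranks of members followed their mean in C57BL/6J at Spearman's rho of 0.793 to 0.829 in vehicle day 6 and 0.771 to 0.800 in AR420626 day 6. In naive CC030 the same rho was 0.398 to 0.438. The day 2 libraries were spread between, at 0.711, 0.395, 0.412, 0.508 and 0.755 for vehicle of mice 1 to 5 and 0.391, 0.427, 0.399, 0.672 and 0.765 for AR420626. The rank correlation of a member's count with its exon length was 0.337 to 0.349 in C57BL/6J, 0.779 to 0.816 in naive CC030, 0.575 to 0.857 in vehicle day 2, 0.487 to 0.875 in AR420626 day 2, 0.478 to 0.520 in vehicle day 6 and 0.513 to 0.577 in AR420626 day 6.

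**Figure D1:**
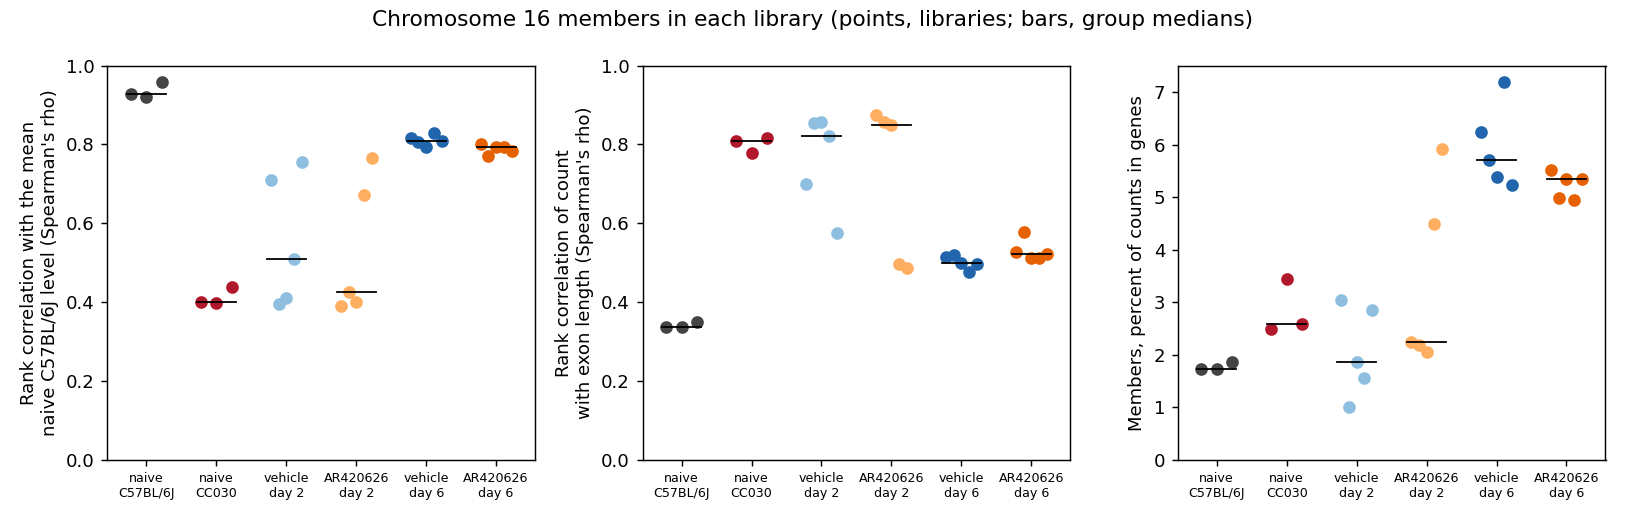
Each point is a library and each bar a group median over the 637 chromosome 16 members. The left panel is Spearman's rho of member levels with the mean of naive C57BL/6J, the middle panel rho of member counts with exon length, and the right panel the percent of counts in genes. The day 6 libraries sit together at 0.771 to 0.829 in the left panel, naive CC030 at 0.398 to 0.438, and the day 2 libraries are spread over both ranges.

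Other chromosomes did not show that likeness to C57BL/6J. With all 664 protein-coding genes of chromosome 16 and group means, rho with C57BL/6J was 0.821 in vehicle day 6, and on the other chromosomes it was 0.200 to 0.434, with a median of 0.289. In naive CC030 it was 0.427 on chromosome 16 and 0.222 to 0.434 elsewhere. CC030 reads had been aligned to a pseudogenome on build mm9 and converted to mm10, and C57BL/6J reads directly to mm10. The 10 genes checked as defining markers of ILC2s all had a median over 100 CPM in C57BL/6J, from 140 to 5149 CPM, and none of them did in naive CC030, where 8 of 10 were over 10 CPM. At day 6, 4 of 10 were over 10 CPM in vehicle and 4 of 10 with AR420626. Counts under defining markers of the labelled cell type were thus low in CC030 libraries. Whether these counts measure the expression of those genes, and how far this touches chromosome 16, was not tested.

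The first question was which of these genes AR420626 altered in ILC2s that had expanded for 6 days. More of them were lower than higher with the agonist. Of 366 members with enough counts to be tested, 71 were lower and 13 were higher by edgeR (adjusted p under 0.05). Over all 9421 genes tested, 8.14% were called lower and 3.3% higher, against 19.4% and 3.55% of the members. The shares over all genes and the TMM factors rest on every chromosome, and those other than chromosome 16 followed C57BL/6J less closely, as given above. How far this shifts the comparison with all genes was not tested. The median log2 fold change was -0.32 over the members and 0.10 over all genes. The called decreases ran from -5.08 to -0.71 on the log2 scale with a median of -1.03, and 69 of the 71 were lower in all 5 mice. The called increases ran from 0.75 to 2.90 with a median of 1.54, and all 13 were higher in 5 of 5 mice. The balance depended on the scaling. With factors computed from chromosome 16 alone, 29 members were higher and 30 lower, against 687 and 326 of all 9421 genes. By total counts without TMM, 20 members were higher and 53 lower, against 468 and 543 of all genes. Of the 84 calls, 43 were kept with chromosome 16 factors, 41 without mouse 1, 53 without mouse 4 and 20 without mice 4 and 5, and none of the 84 changed direction. The mitochondrially encoded share of counts was 7.03% to 11.9% in vehicle and 5.56% to 6.67% with AR420626, without overlap, and its part in these counts was not tested.

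**Figure D2:**
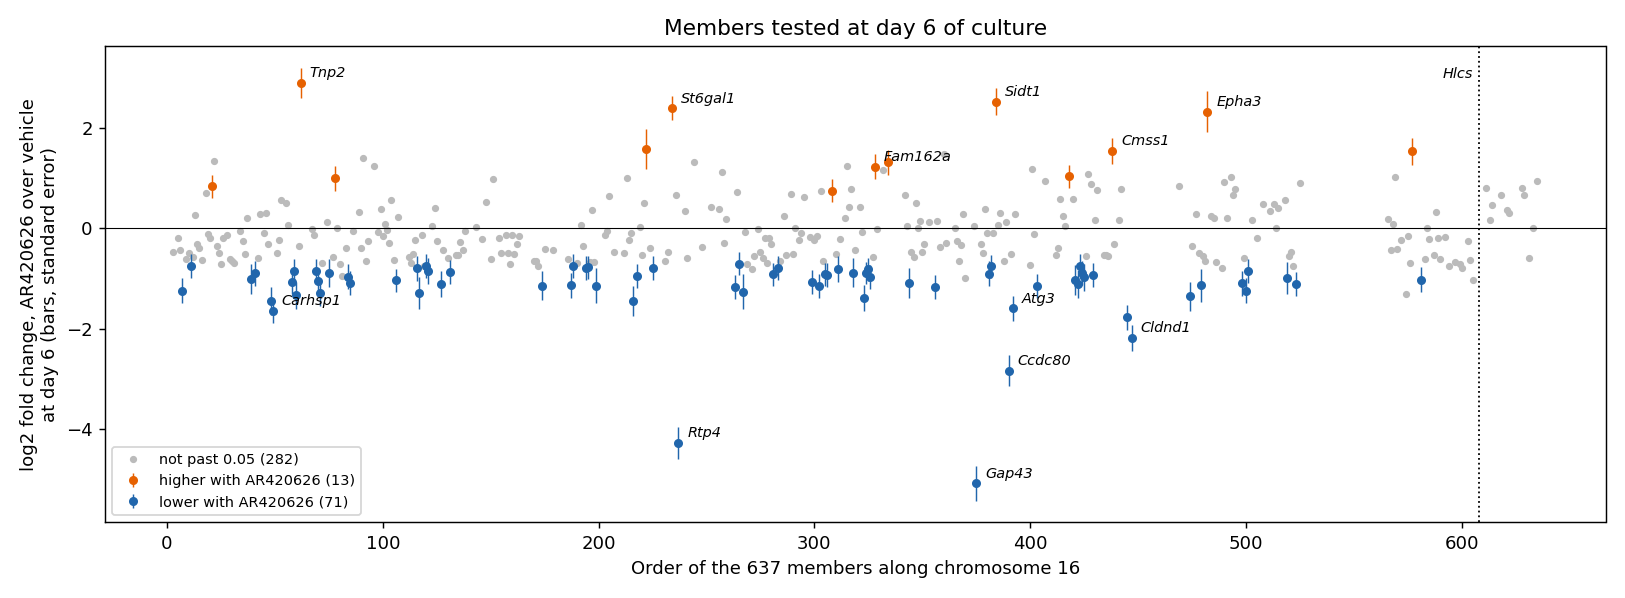
Log2 fold change of AR420626 over vehicle at day 6 for the 366 members tested, in their order along the chromosome, with standard errors on the 84 called members and a dotted line at Hlcs. Blue points are the 71 called lower, orange points the 13 called higher and grey points the 282 others. Calls in both directions are spread along the chromosome up to Hlcs, the stretch that holds 607 of the 637 members. No call lies beyond it.

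Gap43 had the largest decrease. It encodes a membrane-associated phosphoprotein of axonal growth cones and was at 730, 353, 467, 588 and 267 CPM in vehicle day 6 of mice 1 to 5, and at 17.5, 2.82, 24.4, 16.7 and 18.5 CPM with AR420626. Every vehicle library was above every treated library, and the mice kept no common order. The log2 fold change was -5.08 (SE 0.35, edgeR adjusted p = 1.61e-11). Gap43 had no count in C57BL/6J and was at 8.3, 0.667 and 8.53 CPM in naive CC030. It is the first of 22 members listed for neurons, whose summed level was 446 to 925 CPM in vehicle day 6 and 282 to 427 CPM with AR420626, with none at 0 in every library of either group. Among the 13 of these tested, Gap43 was called lower, Epha3 higher and 11 were not called.

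Rtp4, an interferon-induced chaperone of receptor transport, was at 58.3, 42.2, 135, 125 and 116 CPM in vehicle and at 3.33, 4.22, 5.43, 5.01 and 7.4 CPM with AR420626. All treated libraries lay below all vehicle libraries, with a log2 fold change of -4.27 (SE 0.32, edgeR adjusted p = 7.76e-11). Rtp4 lies within the span of Masp1. Parp14, an interferon-induced mono-ADP-ribosyltransferase, was at 212, 166, 183, 290 and 238 CPM in vehicle and at 82.5, 111, 77.8, 56 and 135 CPM with AR420626, again without overlap. Its log2 fold change was -1.39 (SE 0.26, edgeR adjusted p = 0.000401). The neighbouring pair Parp9 and Dtx3l, a second ADP-ribosyltransferase and its ubiquitin ligase partner, overlap each other and fell by 0.82 and 0.89 on the log2 scale (edgeR adjusted p = 0.0155 and 0.00667). Dtx3l was at 235 to 282 CPM in vehicle and 118 to 219 CPM with AR420626, and Parp9 at 175 to 227 CPM and 92.5 to 147 CPM. Neither gene's groups overlapped. With chromosome 16 factors the log2 fold changes were -0.45 for Parp9 and -0.52 for Dtx3l and neither was called (edgeR adjusted p = 0.147 and 0.0972). Both calls were also lost without mouse 1 (edgeR adjusted p = 0.0568 and 0.0615) and without mice 4 and 5 (0.265 and 0.132), and that of Parp9 without mouse 5 (0.0826) and without a filter on low counts (0.0536).

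Ccdc80 and Cldnd1 were also lower in every mouse. Ccdc80, which encodes a secreted matrix protein, was at 81.1, 60.9, 62.1, 68.7 and 90.9 CPM in vehicle and at 7.5, 19, 9.95, 7.52 and 13 CPM with AR420626. The groups stood well apart, with a log2 fold change of -2.84 (SE 0.30, edgeR adjusted p = 8.37e-08). Cldnd1, a membrane protein with a claudin domain, was at 291, 319, 207, 373 and 273 CPM in vehicle and at 76.7, 70.4, 52.4, 51 and 111 CPM with AR420626, a log2 fold change of -2.18 (SE 0.26, edgeR adjusted p = 5.57e-07). Its treated libraries were all below its lowest vehicle library, that of mouse 3.

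Cpox, the oxidase of coproporphyrinogen in heme synthesis, was at 185, 192, 147, 210 and 174 CPM in vehicle and at 65.8, 39.4, 66, 57.6 and 65.7 CPM with AR420626. It fell by 1.77 on the log2 scale (SE 0.25, edgeR adjusted p = 1.34e-05) and overlaps Gpr15. Atg3, the enzyme that transfers LC3 to lipid in autophagy, was at 462, 398, 248, 540 and 332 CPM in vehicle and at 131, 186, 117, 135 and 135 CPM with AR420626. The highest treated library, mouse 2, remained below the lowest vehicle library, mouse 3, and the log2 fold change was -1.60 (SE 0.24, edgeR adjusted p = 3.16e-05). Carhsp1, an RNA-binding cold-shock domain protein, and Pmm2, the phosphomannomutase of N-glycosylation, overlap on opposite strands and fell together by 1.64 and 1.45 on the log2 scale (edgeR adjusted p = 2.36e-05 and 0.000683). Carhsp1 was at 242 to 355 CPM in vehicle and 76 to 126 CPM with AR420626, and Pmm2 at 173 to 407 CPM and 70.2 to 136 CPM. Without strand their reads cannot be told apart in the overlap, and the part of this in either value was not tested.

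St6gal1 and Sidt1 rose with AR420626 in every mouse. St6gal1, the transferase that caps galactose of N-glycans with sialic acid, was at 86.4, 71.4, 76.1, 41.8 and 47.5 CPM in vehicle and at 397, 327, 343, 428 and 319 CPM with AR420626. All treated libraries were above all vehicle libraries, with a log2 fold change of 2.40 (SE 0.24, edgeR adjusted p = 3.51e-08). Sidt1, a multipass membrane protein of a family linked to transport of double-stranded RNA, was at 19.1, 19.2, 24.5, 9.65 and 17.2 CPM in vehicle and at 84.2, 108, 99.5, 135 and 126 CPM with AR420626. Its log2 fold change was 2.53 (SE 0.27, edgeR adjusted p = 9.73e-08), and mouse 4 had both the lowest vehicle and the highest treated value.

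Tnp2 had the largest increase among the members, from 8.48, 12.4, 31.5, 8.48 and 20.8 CPM in vehicle to 113, 52.8, 123, 149 and 195 CPM with AR420626. It encodes a transition protein of spermatid chromatin, and its log2 fold change was 2.90 (SE 0.30, edgeR adjusted p = 5.70e-08). Tnp2 lies 2400 bp from Socs1 on the same strand, and Socs1 was at 936 CPM in vehicle and 1001 CPM with AR420626 on average, a log2 fold change of -0.01 (edgeR adjusted p = 0.989). Whether reads of that neighbour contribute to the counts under Tnp2 was not tested. The 13 members listed for testis summed to 19.3 to 84.8 CPM in vehicle and 135 to 257 CPM with AR420626, Tnp2 included, and 1 of the 13 was at 0 in every library of each group.

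Fam162a was the most abundant of the genes that rose. It encodes a mitochondrial protein known as a target of hypoxia-inducible factor, and was at 655, 676, 701, 699 and 513 CPM in vehicle and at 1852, 1206, 2269, 1752 and 1423 CPM with AR420626. The lowest treated library was above the highest vehicle library, and the log2 fold change was 1.23 (SE 0.25, edgeR adjusted p = 0.00113). It overlaps Wdr5b, and without a filter on low counts its adjusted p was 0.0828, and without mice 4 and 5 it was 0.0539. Alcam, an adhesion molecule of activated leukocytes, rose from 133, 113, 103, 141 and 118 CPM to 313, 306, 259, 263 and 231 CPM (log2 fold change 1.04, SE 0.23, edgeR adjusted p = 0.00238). Its groups did not overlap, and without a filter on low counts the log2 fold change was 0.80 and was not called (edgeR adjusted p = 0.315). Cmss1, named for the small ribosomal subunit, overlaps Filip1l and rose from 56.2, 87.6, 90.1, 60.8 and 80.2 CPM to 246, 149, 335, 222 and 265 CPM (log2 fold change 1.55, SE 0.25, edgeR adjusted p = 9.22e-05).

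The uncharacterized gene 4932438H23Rik went from 520, 322, 259, 642 and 275 CPM to 1268, 1021, 1371, 1192 and 1215 CPM, a log2 fold change of 1.54 (SE 0.27, edgeR adjusted p = 0.000218). Its groups stood apart although the vehicle libraries of mice 1 and 4 were the highest of their group. Epha3, a receptor for ephrins, had lower counts and a wider spread, at 1.17 to 20.7 CPM in vehicle and 27.6 to 46.1 CPM with AR420626, with a log2 fold change of 2.33 (SE 0.41, edgeR adjusted p = 0.000233). The transcriptional coactivator gene Mrtfb, the coronin gene Coro7 and Heg1 rose by 0.99, 0.84 and 0.75 on the log2 scale, and none of them was called without a filter on low counts, without mouse 1 or without mice 4 and 5. Coro7 was also not called without mouse 3, and Heg1 without mouse 2, 3 or 5, with DESeq2 size factors or without the mouse as a block. Coro7 was at 150 to 173 CPM in vehicle and 288 to 347 CPM with AR420626. Heg1 is 1 of 9 members listed for endothelium, platelets and muscle, whose sum was 225 to 310 CPM in vehicle and 326 to 492 CPM with AR420626.

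**Figure D3:**
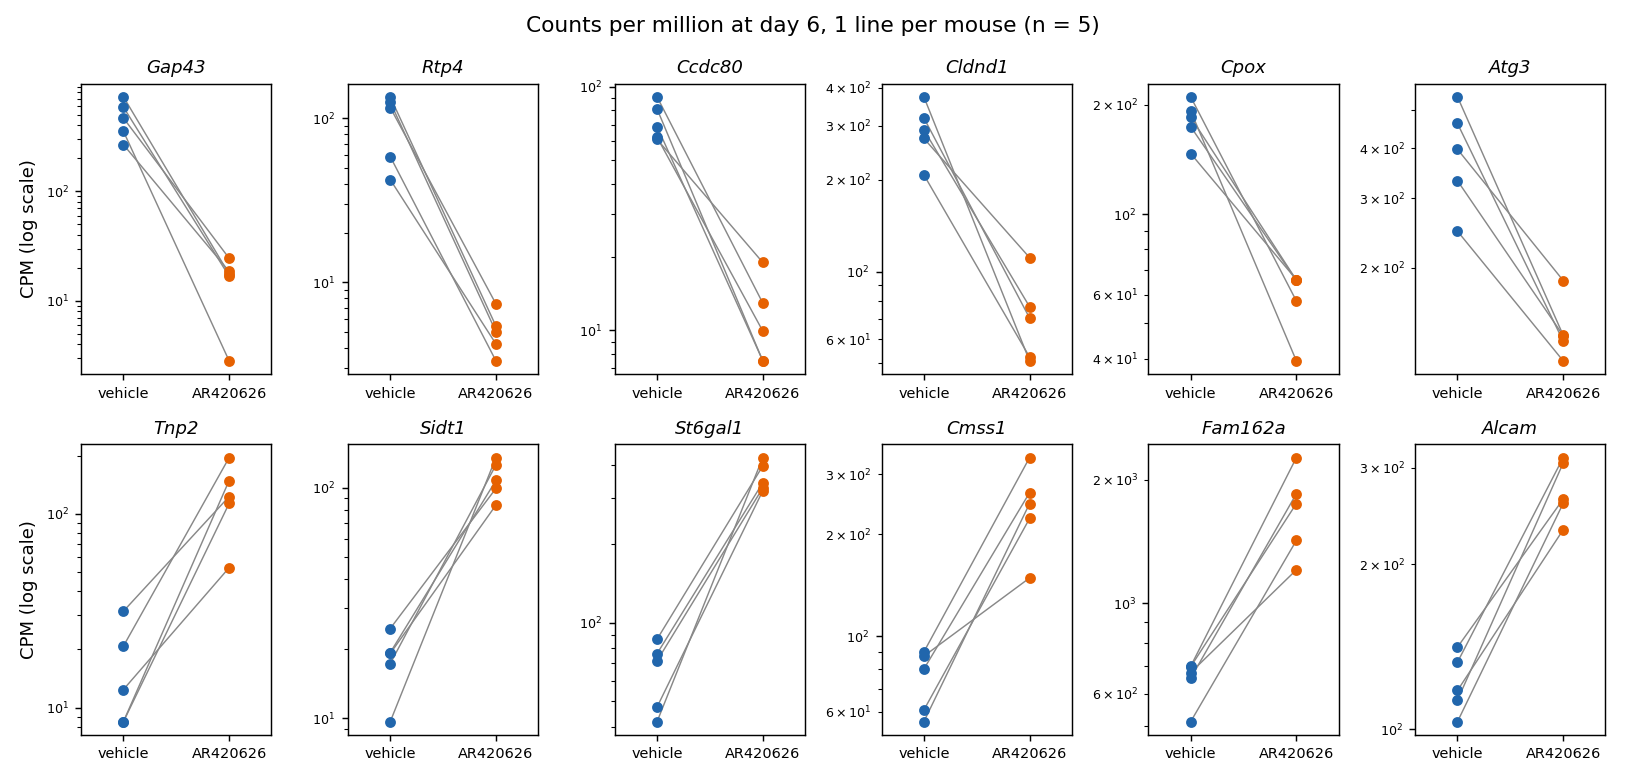
CPM on a log scale for 12 members at day 6, with a line joining the vehicle and AR420626 libraries of each of 5 mice. The upper row falls in every mouse, from Gap43 at 267 to 730 CPM in vehicle to Atg3 at 248 to 540 CPM, and the lower row rises in every mouse.

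The stretches just before the start sites of 5 of these genes are shown because the genes were called at day 6, Fam162a and Sidt1 higher and Atg3, Cpox and Cldnd1 lower, and because they differ in the letters searched for. They are the 250 bases before the RefSeq start on GRCm38.p6, 5′ to 3′ on the strand of the gene, with ACGTG or GCGTG in capitals on either strand. These letters are the core of the element that hypoxia-inducible factor binds, and CACGTG contains ACGTG on both strands and is counted on each. Fam162a is chr16:36071562-36071811 on the minus strand, Sidt1 is chr16:44332839-44333088 on the minus strand, Atg3 is chr16:45158579-45158828 on the plus strand, Cpox is chr16:58669958-58670207 on the plus strand, and Cldnd1 is chr16:58727660-58727909 on the plus strand.
Fam162a: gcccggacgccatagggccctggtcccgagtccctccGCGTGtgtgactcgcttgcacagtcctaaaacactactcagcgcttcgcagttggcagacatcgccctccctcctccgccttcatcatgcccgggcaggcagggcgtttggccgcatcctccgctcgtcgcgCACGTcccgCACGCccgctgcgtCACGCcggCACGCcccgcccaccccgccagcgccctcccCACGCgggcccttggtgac
Sidt1: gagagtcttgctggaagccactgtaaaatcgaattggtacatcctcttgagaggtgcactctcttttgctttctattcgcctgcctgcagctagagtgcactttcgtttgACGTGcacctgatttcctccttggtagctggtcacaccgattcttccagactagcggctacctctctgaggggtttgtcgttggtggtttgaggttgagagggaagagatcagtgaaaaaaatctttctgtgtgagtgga
Atg3: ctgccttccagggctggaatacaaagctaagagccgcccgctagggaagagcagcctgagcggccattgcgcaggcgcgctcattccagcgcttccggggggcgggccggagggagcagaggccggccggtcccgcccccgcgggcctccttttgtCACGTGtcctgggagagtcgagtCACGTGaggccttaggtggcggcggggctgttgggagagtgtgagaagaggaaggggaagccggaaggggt
Cpox: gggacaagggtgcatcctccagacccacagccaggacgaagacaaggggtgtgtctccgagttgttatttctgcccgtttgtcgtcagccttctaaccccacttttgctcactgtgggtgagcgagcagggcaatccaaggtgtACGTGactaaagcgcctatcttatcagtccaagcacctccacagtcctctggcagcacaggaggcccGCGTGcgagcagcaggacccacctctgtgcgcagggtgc
Cldnd1: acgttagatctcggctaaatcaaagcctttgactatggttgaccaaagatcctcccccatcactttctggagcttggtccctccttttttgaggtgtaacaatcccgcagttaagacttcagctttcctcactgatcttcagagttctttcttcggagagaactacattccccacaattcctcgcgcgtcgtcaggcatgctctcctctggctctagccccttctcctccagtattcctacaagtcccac
Fam162a had 6 matches, 1 of ACGTG and 5 of GCGTG, Sidt1 had 1, Atg3 had 4, Cpox had 2 and Cldnd1 had 0. The windows of Tnp2, Epha3 and 4932438H23Rik, which were called higher, also had 0. Of 32851 such windows over the genome, 38.6% held at least 1 match and 0.417% held 6 or more. Among 87 windows of the members named by rule, found for 77 of 99 genes, 57.5% held a match. The windows shown were picked after their letters had been counted. A match is a description of the letters and not of binding, and genes called in both directions had matches and lacked them.

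The lists of members by function were drawn up with earlier results of these data known. Among these lists, the decreases were most numerous for genes of protein folding and the secretory path. Of 19 such members tested, 10 were lower and 0 higher, with a median log2 fold change of -0.86. They included Pmm2 and Alg1 of N-glycan assembly, the vesicle genes Snap29 and Sec22a, Tfg of endoplasmic reticulum exit sites, and the chaperone genes Hspa13 and Cct8, each of the last pair at -1.10. Of 15 members for translation and ribosomes, 6 were lower and Cmss1 was higher, with a median of -0.60. Rpl35a, a protein of the large ribosomal subunit, was at 462, 453, 387, 680 and 375 CPM in vehicle and at 207, 198, 261, 261 and 223 CPM with AR420626 (log2 fold change -1.15, SE 0.24, edgeR adjusted p = 0.00156). Its groups did not overlap, while those of Rpl24, another protein of that subunit, did. Rpl24 was at 160, 143, 95.3, 203 and 86.2 CPM in vehicle and at 97.5, 52.8, 93.1, 66.8 and 41.6 CPM with AR420626 (log2 fold change -1.11, SE 0.27, edgeR adjusted p = 0.00602). Without mice 4 and 5 neither was called, at adjusted p = 0.0917 for Rpl35a and 0.286 for Rpl24.

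Smaller numbers were called in the other functional groups. Of 16 members for ubiquitin and SUMO, 4 were lower, Ube2l3, Fbxo45, Dtx3l and Usp25, and of 20 for replication and repair 4 were lower, Umps, Parp14, Parp9 and Cep97. Of 20 members listed for mitochondria, Nubp1, Mrpl40 and Trmt10c were lower and Fam162a was higher. Of 26 members for chromatin and transcription, Zfp148, Zbtb11 and Nrip1 were lower and Mrtfb was higher. Of 23 members for leukocyte signalling, Nlrc3, Carhsp1 and Nrros were lower and Coro7 and Alcam higher. Of 19 for metabolism, Atp13a3, Umps and Cpox were lower. By human location, 3 of 26 counterparts of 22q11 genes (Snap29, Thap7 and Mrpl40) and 6 of 51 counterparts of chromosome 21 genes (Hspa13, Nrip1, Usp25, N6amt1, Cct8 and Tmem50b) were lower and none was higher, with medians of -0.44 and -0.19. In each list the remaining members were not called. The share called lower was 8.14% of all genes and 19.4% of all members tested.

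**Figure D4:**
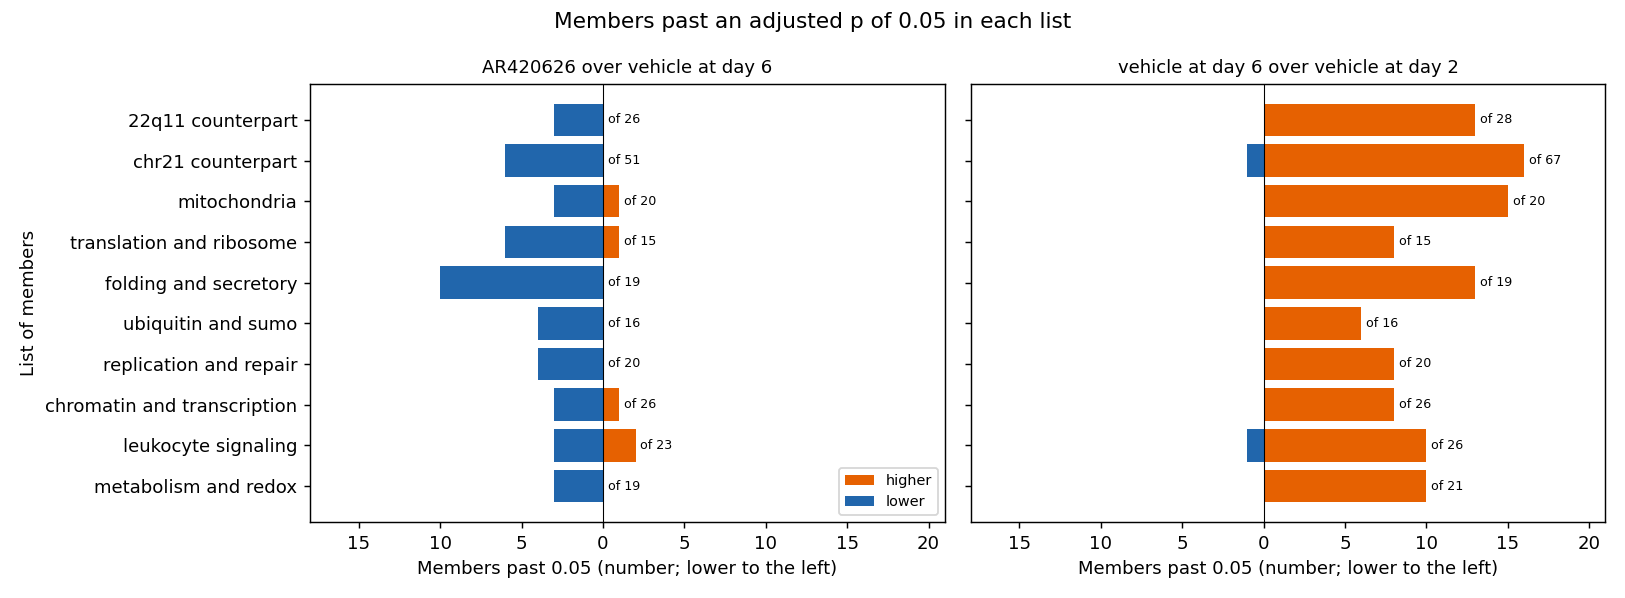
Number of members called lower (bars to the left, blue) and higher (bars to the right, orange) in each list, with the number tested beside it. The left panel is AR420626 over vehicle at day 6 and the right panel is vehicle at day 6 over vehicle at day 2. Folding and secretory genes have 10 of 19 lower in the left panel and 13 of 19 higher in the right panel, and both panels use the vehicle day 6 libraries.

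Several abundant members did not pass the test at day 6. Atp5j, a subunit of the mitochondrial ATP synthase, was at 2507, 2753, 2817, 2618 and 2330 CPM in vehicle and at 4830, 2923, 4717, 3986 and 3904 CPM with AR420626. Treated libraries were above vehicle libraries in all 5 mice without overlap, but after TMM the log2 fold change was 0.49 (SE 0.26, edgeR adjusted p = 0.222), and an exact permutation test over 5 pairs cannot reach 0.05. It was called under 3 alternatives, at 0.68 by total counts without TMM (edgeR adjusted p = 0.0222), 0.69 with at least 10 counts in every library (edgeR adjusted p = 0.0320) and 0.86 with chromosome 16 factors (edgeR adjusted p = 0.0198). Sod1, the copper and zinc superoxide dismutase, was at 258 to 395 CPM in vehicle and 175 to 393 CPM with AR420626 (log2 fold change -0.43, SE 0.24, edgeR adjusted p = 0.258). App, the amyloid precursor protein, was at 9.94 to 27.3 CPM and 17.5 to 44.4 CPM (log2 fold change 0.41, SE 0.33, edgeR adjusted p = 0.448). The groups of Sod1 and of App overlapped.

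At day 2, no member was called. Of 486 members tested, 0 passed by edgeR, against 0% of 20865 genes. By DESeq2 0 members passed, and of the same genes 15 were lower and 0 higher. An unadjusted edgeR p under 0.05 was found for 6 members, which is 1.23% against 1.93% of all genes. DESeq2 gave 18 members at an unadjusted p under 0.05. On simulated counts the edgeR test recovered 17.1% of 4-fold changes at day 2, against 97.3% at day 6. The lack of calls at day 2 therefore does not show a lack of effect. Gap43 had a log2 fold change of -1.66 and Rtp4 one of -1.90. In vehicle day 2, Gap43 was at 62, 4.29, 262, 7.86 and 3.38 CPM, so that 2 of the 5 mice were high and 3 were low. The day 2 groups also differed in the mitochondrially encoded share of counts, at 15.5%, 56.6%, 21.2%, 37.4% and 55.7% in vehicle and 2.46% to 13.4% with AR420626, and its part in these values was not tested.

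Whether the effect of AR420626 differed between the days was tested by an interaction. Of 509 members, 0 were called by edgeR against 0.0519% of 23141 genes, and 28 had an unadjusted p under 0.05 (5.5% of members against 5.33% of all genes). Over all 23141 genes DESeq2 called 49 higher and 26 lower, and of the members it called 3. Those 3 were Sidt1 at 2.19 (DESeq2 adjusted p = 0.00175), Ccdc80 at -2.99 (DESeq2 adjusted p = 0.00890) and Gap43 at -3.82 (DESeq2 adjusted p = 0.0419), as log2 differences of the day 6 effect from the day 2 effect. With edgeR their estimates were 2.20, -2.97 and -3.80 with adjusted p of 0.470, 0.218 and 0.656. The call at day 6 and its absence at day 2 therefore do not show, by edgeR, that the effects differ. On simulated counts this interaction test recovered 0.5% of 4-fold changes, so it does not show like effects on both days either.

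The next comparison asked how the same members changed in culture with vehicle, from day 2 to day 6 of the same mice. Many members of the mitochondrial, secretory and translation lists were higher at day 6. Of 440 members tested, 155 were higher and 11 lower by edgeR, which is 35.2% and 2.5%, against 13.6% and 3.73% of all 15819 genes. The median log2 fold change was 1.73 over members and -0.33 over all genes. Of the 155 increases, 138 were in the same direction in all 5 mice. This count depended on the settings. Without the mouse as a block, 88 members were higher and 8 lower, against 1416 and 540 of all 15819 genes. Without mouse 4 it was 45 and 5 members, against 820 and 174 of 16124 genes. Without mouse 5 it was 275 and 28 members, against 3943 and 1433 of 18253 genes. With factors computed from chromosome 16 alone, 103 members were higher and 122 lower, with 7 called members in the other direction. Over all 15819 genes, 1059 were then higher and 8629 lower.

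Ranbp1, a regulator of nuclear transport by Ran, was at 309, 3.12, 19.3, 26.7 and 79.3 CPM at day 2 and at 1814, 1543, 1498, 1701 and 1275 CPM at day 6. Day 6 lay far above day 2 in each mouse, and day 2 varied more between mice than day 6 did. The log2 fold change was 6.55 (SE 1.55, edgeR adjusted p = 0.00803), and Ranbp1 overlaps Trmt2a, which rose by 6.04. Atp5j, which overlaps Gabpa, was at 682, 19.5, 28.1, 99.8 and 55.8 CPM at day 2 and rose by 6.06 on the log2 scale (SE 1.41, edgeR adjusted p = 0.00699). Mouse 1 was the highest at day 2 in both genes, and without mouse 4 neither was called (edgeR adjusted p = 0.0725 for Ranbp1 and 0.0606 for Atp5j). Increases of a like size were found for Ncbp2 of the nuclear cap-binding complex (6.31) and for Pigx of glycosylphosphatidylinositol anchor synthesis (6.17). Each has a close neighbour whose reads may be shared: 0610012G03Rik, 19 bp from Ncbp2, rose by 5.91, and Cep19, 60 bp from Pigx, rose by 5.57. The calls of Trmt2a and 0610012G03Rik were lost without the mouse as a block and without mouse 3 or 4.

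Gap43 also rose with time in vehicle, by 5.50 on the log2 scale (edgeR adjusted p = 0.00581), and so did the lymphocyte adaptor gene Samsn1 (5.18), whose call was lost without mouse 2, 3 or 4. Sod1 rose by 4.78, Rpl24 by 4.74 and Rpl35a by 4.22 (edgeR adjusted p = 0.00507, 0.0059 and 0.0318). Rpl35a was not called without the mouse as a block, at 2.76 (edgeR adjusted p = 0.124), or without mouse 1, 2, 3 or 4 (edgeR adjusted p = 0.0675 to 0.161). App had a log2 fold change of -0.14 (edgeR adjusted p = 0.853). On simulated counts this test of time recovered 10.3% of 4-fold changes, so the lack of a call does not show a lack of change. Most called members of the functional lists were higher, with 15 of 20 for mitochondria (median 3.16), 8 of 15 for translation (3.11), 13 of 19 for folding and secretion (2.90), 10 of 21 for metabolism (2.80), 8 of 20 for replication and repair (2.57), 6 of 16 for ubiquitin (2.29), 8 of 26 for chromatin (2.01) and 10 of 26 for leukocyte signalling (1.91). The last list had 1 member lower. Of the counterparts of 22q11, 13 of 28 rose, and of those of chromosome 21, 16 of 67 rose and 1 fell.

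Only 11 of the 440 members were lower at day 6. B3gnt5, an N-acetylglucosaminyltransferase of glycolipids, was at 82.1, 80.8, 45.6, 146 and 11.8 CPM at day 2 and at 1.06, 11.8, 7, 2.34 and 5.35 CPM at day 6 (log2 fold change -2.83, SE 0.57, edgeR adjusted p = 0.00296). Mouse 5 was the lowest at day 2, so the change was smallest there. The others were Pou1f1 of pituitary cells (-3.40), Meltf, Fstl1, Itgb2l, Kng1, B3galt5, Gcsam, the smooth muscle genes Myh11 (-1.68) and Mylk (-1.49), and Atp13a5. Mylk was not called without the mouse as a block, without a filter on low counts or without mouse 1, 2, 3 or 4. Vehicle libraries of these days also differed in the mitochondrially encoded share of counts, 15.5% to 56.6% at day 2 and 7.03% to 11.9% at day 6, and in the rank correlation of counts with exon length, 0.575 to 0.857 at day 2 and 0.478 to 0.520 at day 6. The part of these in the comparison was not tested.

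**Figure D5:**
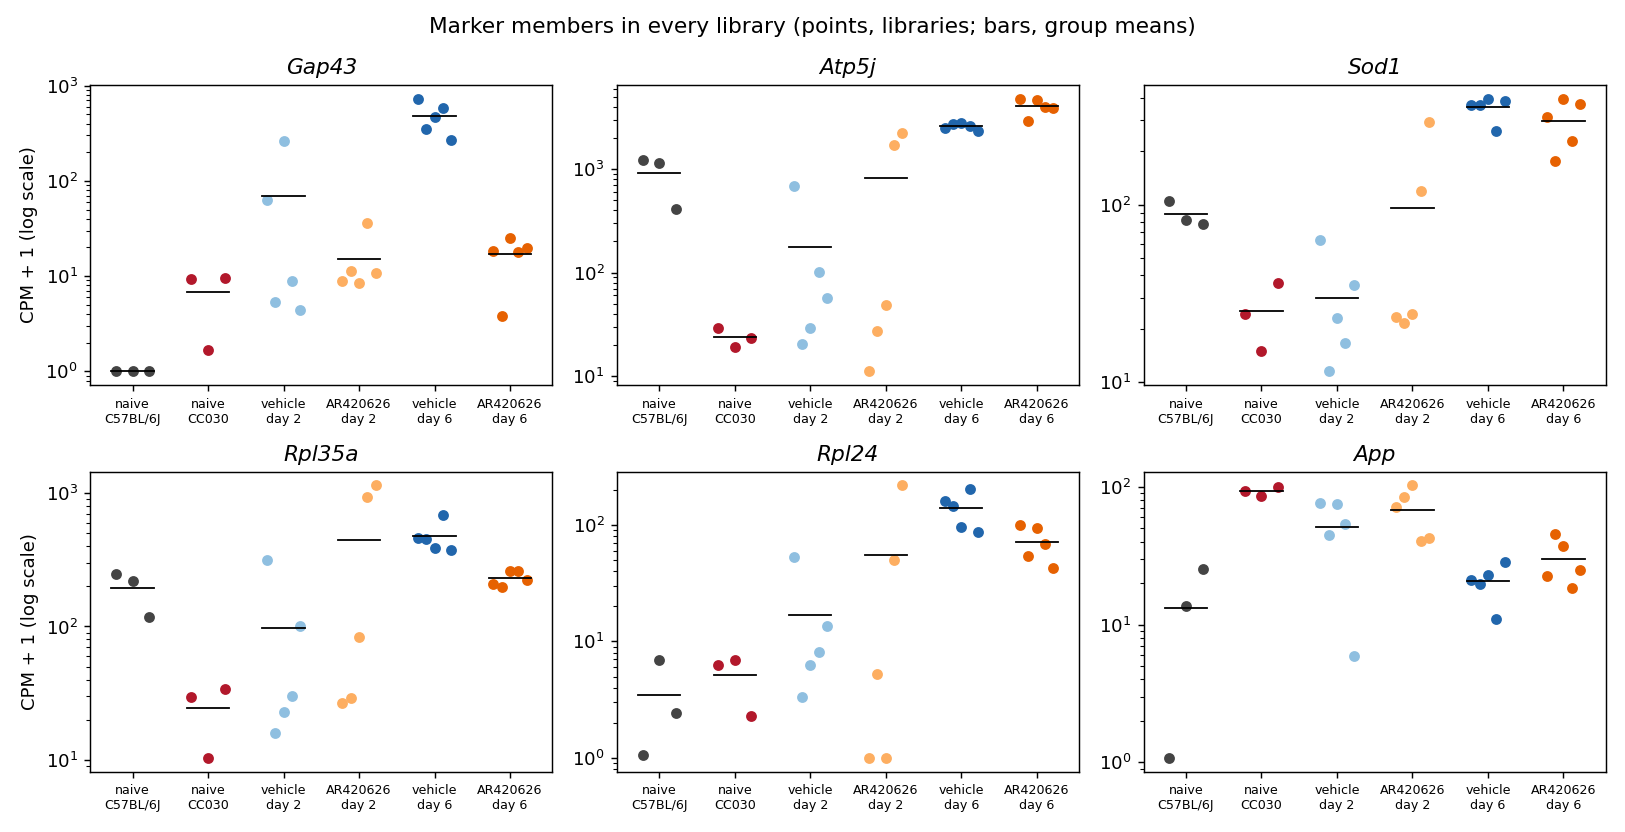
CPM plus 1 on a log scale for 6 members in all 26 libraries, with a point for each library and a bar for each group mean. Gap43 is high in vehicle day 6 alone apart from mouse 3 at day 2, Atp5j is highest at day 6, Rpl35a and Rpl24 are lower with AR420626 at day 6, and the day 2 libraries are widely spread.

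Levels per length put the most abundant members in order within a group, here as CPM per exonic kb. In naive C57BL/6J Samsn1 was highest at 389, before Atp5j at 296, Smim11 at 272, Fam162a at 269 and Ranbp1 at 195. In vehicle day 6, Ranbp1 (940 ± 124, SD, n = 5), Atp5j (832 ± 62.4) and Fam162a (763 ± 92.0) led, and neighbours in that order did not differ beyond their SDs. Gap43 was at 316 ± 121 in the same libraries. With AR420626, Fam162a was at 2000 ± 481, Atp5j at 1301 ± 245 and Ranbp1 at 763, which is another order at the top. In naive CC030 the leading value was Atg3 at 1173 with an SD of 2017, since it was at 23.4, 11048 and 32.1 CPM in the 3 libraries, and the value rests on replicate 2.

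Between strains, naive CC030 libraries had counts under nearly all members and C57BL/6J libraries under fewer. Of the 637 members, 217 had no count in any C57BL/6J library and 10 had none in any naive CC030 library, whereas 250 and 491 had at least 10 counts in every library. By edgeR, 284 of 582 members tested were higher in CC030 and 96 were lower, against 64.1% and 12.2% of all 35551 genes. Of the 284, 168 had no count in C57BL/6J. The median log2 fold change was 2.67 over members and 7.03 over all genes, and with a group at 0 held at a floor of 3 counts per library the medians were 3.81 and 4.98. With the test limited to genes at 10 counts or more in each library, 53 of 236 members were higher and 57 lower, with a median of 0.20. Over all 7223 genes then tested, 1635 were higher and 1938 lower, with a median of 0.02.

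Lists for other tissues held many of the members called higher in CC030. All 21 neuronal members tested were higher, 11 of 15 for epithelium, 11 of 12 for testis and 7 of 7 keratin-associated genes of hair. None of these was lower, and 64.1% of all genes were higher. However, all 168 members tested without a count in C57BL/6J were called higher, having passed the filter through CC030 alone. Such a lack of counts held for 9 of 15 epithelial, 11 of 13 testis and 23 of 24 keratin-associated members listed. Their calls were settled by that lack and are no evidence about tissue. The neuronal list of 22 summed to 0.0739 to 2.17 CPM in C57BL/6J, where 17 of its members had no count, and to 843 to 960 CPM in naive CC030, where none was at 0. Against the C57BL/6J floor, the complement protease gene Masp1 was at least 598-fold higher, the kinase gene Map3k13 at least 494-fold, the neuronal adhesion gene Dscam at least 468-fold and the mucin gene Muc4 at least 453-fold. The exon length correlation of 0.779 to 0.816 in these libraries moves with this pattern, and its part was not tested.

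Decreases in CC030 included genes of energy supply and translation. Samsn1 was at 2270, 1764 and 1724 CPM in C57BL/6J and at 15.1, 20 and 32.1 CPM in naive CC030 (log2 fold change -7.63, SE 0.54, edgeR adjusted p = 0.000446). Atp5j was at 1225, 1145 and 412 CPM in C57BL/6J and at 27.9, 18 and 22.3 CPM in CC030 (log2 fold change -6.61, SE 0.67, edgeR adjusted p = 0.00046). The groups of both genes were far apart, though an exact permutation test of 3 against 3 cannot go below 0.10. Fam162a (-5.46), Ranbp1 (-5.43) and the chaperonin gene Cct8 (-5.32) fell as well, as did Rpl35a (-4.28) and Sod1 (-3.06). Of the members listed for mitochondria, 10 of 20 were lower and 2 higher, and of those for translation 7 of 15 lower and 2 higher. Of those for folding and secretion, 8 of 21 were lower and 1 higher. Over all genes tested 12.2% were lower and 64.1% higher, and over the members tested 16.5% and 48.8%. Rpl24 (-0.49, edgeR adjusted p = 0.738) and App (1.80, edgeR adjusted p = 0.23) were not called, and Rpl24 had the opposite sign with DESeq2, with its size factors, by total counts and with a replicate block. On simulated counts the strain test recovered 0.0% of 4-fold changes, so the lack of a call does not show a lack of difference.

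The end of the chromosome differed from the rest. From Hlcs to Ripply3, chr16:94128882-94336935 on mm10, all 7 annotated features had no count in any of the 23 CC030 libraries. Hlcs, the ligase that attaches biotin to carboxylases, had 599 counts over the C57BL/6J libraries, at 16.3, 8.46 and 16.8 CPM, and was at least 6.67-fold lower in naive CC030. Ripply3, a regulator of pharyngeal development, had 85. Before Hlcs, 607 members followed C57BL/6J at a rho of 0.867 in vehicle day 6 and 0.846 with AR420626, and the 28 members beyond Ripply3 at -0.15 and -0.24. In naive CC030 rho was 0.458 before Hlcs and -0.126 beyond Ripply3. Of 13 members beyond Ripply3 with over 10 CPM in C57BL/6J, 3 were also over 10 CPM in vehicle day 6 and 5 in AR420626 day 6. The same count was 12 in naive CC030, 9 in vehicle day 2 and 11 in AR420626 day 2. Of all 28 beyond Ripply3, 8 were over 10 CPM in vehicle day 6 and 9 with AR420626. All 84 members called at day 6 lie before Hlcs, as do 607 of the 637 members. This boundary was set after the values were seen and is a description, with no test, and a difference between strains and the different alignment of their reads cannot be told apart there.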

How the data were processed

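RNA was measured in 26 libraries made with SMART-Seq v4. Per the labels and methods, the authors trimmed reads with fastp 1.0.1, checked them with FastQC 0.12.1 and aligned them with STAR 2.7.11b, C57BL/6J to mm10 and CC030 to an mm9 pseudogenome converted to mm10 by lapels 1.1.1. What they deposited are raw counts of reads on each gene, made with HTSeq 2.0.5 and neither normalized nor filtered. Symbols and positions came from GENCODE vM21, on GRCm38. Genes were filtered by filterByExpr (minimum count 10, minimum total 15) and tested with edgeR 4.0.16 in R 4.3.3 by the quasi-likelihood test with TMM and Benjamini-Hochberg adjustment over all genes, with mouse as a block in culture. Cells of each mouse were split between treatments, so same-numbered libraries are paired by design. Their deviations from group means correlated at -0.056 to 0.379 at day 6. Members and gene lists were chosen with earlier results of these data known. Genes were named by rule: the markers, the 8 largest rises and falls among members with 50 or more counts on average and 1 direction in every pair, the 4 members of smallest p in each list, and the 10 highest per exonic kb. Others, among them Parp9, Dtx3l and the lists' called members, were named after their values were seen. Alternatives were DESeq2 1.42.0, its size factors, no filter or at least 10 counts in every library, factors from chromosome 16, the mouse or replicate block switched on or off, and each replicate left out. Total counts without TMM, and leaving out mice 4 and 5, were chosen after seeing the data. The tests were first tried on simulated data.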

Additional observations from a re-analysis of the deposited data

Results flagged for a closer look

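Among 124 combinations of a named member and a group of 5 libraries, 18 had a highest or lowest library that stood apart from the others by Dixon's test, with a gap over 0.71 of the range. Chance flags about 1 in 20 such groups, and no cause was tested.

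Vehicle day 2 of mouse 1 accounted for 9 of the 18, with each value above those of the other mice. Atp5j was at 682 CPM there against 19.5 to 99.8 CPM, Samsn1 at 426 against 17.6 to 113, Rpl35a at 311 against 14.8 to 100.4, and Ranbp1 at 309 against 3.12 to 79.3. Fam162a was at 177 CPM against 7.02 to 35.3, Atg3 at 108 against 13.3 to 40.4, Carhsp1 at 96.3 against 4.68 to 22.8, and Rtp4 at 63.6 against 0.94 to 17.3. Rpl24 was at 51.9 CPM in the same library, against 2.34 to 12.6.

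Other day 2 values that stood apart were Gap43 at 262 CPM in vehicle of mouse 3 (others 3.38 to 62) and at 35.2 CPM in AR420626 of mouse 4 (7.39 to 10.2), Rpl24 at 216 CPM in AR420626 of mouse 5 (0 to 48.4), and 4932438H23Rik at 106 CPM in the same library (26.8 to 35.2). At day 6, in vehicle, mouse 4 had Rpl35a at 680 CPM (375 to 462) and Sod1 at 258 CPM (361 to 395), mouse 5 had Fam162a at 513 CPM (655 to 701) and mouse 2 had 2010005H15Rik at 112 CPM (31.3 to 52.6). With AR420626, Atg3 was at 186 CPM in mouse 2 (117 to 135).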

How the results depend on the processing

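Against all alternatives, 57 summary values stayed within their range and 21 moved. For AR420626 at day 6 (84 members called), leaving out each mouse gave 41 to 104 calls and leaving out mice 4 and 5 gave 22. At day 2 no setting called a member. For the difference between days (0 called), DESeq2 called 3 and the fit without mice 4 and 5 called 1, Sidt1. For time in vehicle (166 called), DESeq2 gave 252, no replicate block 96, leaving out each mouse 50 to 303, and leaving out mice 4 and 5 gave 281. Between strains (380 called), at least 10 counts in every library gave 110, and leaving out each library 324 to 405. The median strain log2 fold change of members (2.67) was 3.36 with DESeq2 and with its size factors, 3.11 without a filter, 0.20 with at least 10 counts, 3.86 by total counts, 4.02 with the replicate block and 2.21 to 2.69 on leaving out each library. Strain replicate numbers are only numbers, with correlations of deviations of -0.061 to -0.024, and the replicate block gave 390 calls.

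Of 87 members recomputed at day 6, 0 changed direction and 18 kept their side of 0.05 in every alternative run. Rpl24 between strains reversed, to 0.0771 with DESeq2, 0.0764 with its size factors, 0.80 by total counts and 0.26 with the block. Causes were not tested. Factors from chromosome 16 moved the median of all genes by 0.36 at day 6 and -1.92 for time. The shallowest library, AR420626 day 2 of mouse 4, held 227445 counts, and the part of depth was not tested.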
